A study of Mus musculus with 6 samples.

Results

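The receptors for glutamate, GABA and glycine are described here through the genes of their subunits. Members were taken by symbol from the authors' deposited comparison, as the rows for AMPA, NMDA, kainate, delta and metabotropic glutamate receptors, GABA-A and GABA-B receptors and glycine receptors. Of 52 such symbols listed, 49 had a base mean above 0, out of 18446 genes with a mean above 0 and 25239 symbols in all. The base mean is the average over the libraries of counts divided by a size factor that corrects for depth. The 49 members comprised 26 glutamate, 19 GABA and 4 glycine receptor genes, and 3 further symbols (Gabrp, Gabrr3 and Glra1) were listed at a mean of 0.

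Ionotropic glutamate receptors are cation channels of the AMPA, NMDA and kainate types, and metabotropic glutamate receptors signal through G proteins. GABA-A and glycine receptors are pentameric chloride channels, and GABA-B receptors are paired G protein-coupled receptors. In the embryonic cortex these receptors are made before most synapses form, and GABA and glycine depolarise immature neurons because their chloride content is high, which affects proliferation and migration.

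Polyadenylated RNA was measured in E15.5 cortex of C57BL/6J mouse embryos that had been electroporated in utero at E13.5. In 3 libraries, labelled MPPH, a CRISPR method called Breasi-CRISPR had been used to introduce the Thr280Ala variant of Ccnd2, the gene of cyclin D2. In the other 3 libraries, labelled wild type, only GFP had been delivered. The study lists no group edited without the variant, so the variant and the editing cannot be told apart. The share of edited cells in each library is not stated. Nothing states that each library came from an embryo of its own, so each p-value reflects the spread of these libraries, which may be technical.

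The deposited file is a single comparison between the groups, whose numerator is not stated. Genes with a log2 fold change above 0 are therefore said to be higher on the positive side and the others on the negative side, without saying which side holds the edited libraries. Whole reads per library were recovered exactly from the base means and fold changes for all 49 members, and normalised reads below are these reads divided by the library's size factor. Size factors ran from 0.85 to 1.11, and the base means of all genes summed to 23691630 normalised counts, while the total reads of each library are not stated. Library numbers, 1 to 3 on each side, follow the size factors from large to small and are not matched to a label.

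The libraries differed in tissue markers. Summed over 9 meningeal genes, such as the collagen gene Col1a1, the positive side had 7294 and 9882 normalised reads in its libraries 1 and 2, and there were between 381.1 and 524.3 in the 4 remaining libraries. Summed over 12 genes of ventral progenitors and interneurons, such as the homeobox gene Dlx5, they were 7770, 7629 and 5280 on the positive side against 14710, 8438 and 13540 on the negative side. Over 13 striatal genes, such as Isl1, the sums were 2814, 1456 and 2499 against 5563, 2639 and 6036. Library 2 was thus the lowest of the negative side in both lists. Lhx8 of the ventral list had 0 reads in the 3 libraries of the positive side against 7, 1 and 7 raw reads. Its base mean was only 2.58, so these 0 reads do not show that ventral cells were absent. By DESeq2, 11 of the 12 ventral genes were negative with an unadjusted p under 0.05. Lhx6 was the exception, with 1811, 2259 and 1598 normalised reads against 1992, 1758 and 2308. Its sides overlapped, and its log2 fold change in the authors' deposited table was -0.10 ± 0.14. Genes of the cortical excitatory lineage were abundant, with base means of 2159 for Emx1, 14239.7 for Tbr1 and 20121.5 for Neurod6 in the authors' deposited table. In these tissue pieces fewer cells of a type and less RNA per cell cannot be told apart.

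Receptor subunit transcripts ranged from 0.131 to 1107 normalised counts per kilobase. Per kilobase of annotated exon the highest base means were those of Grik5, a kainate subunit, at 1107 normalised counts, Gabbr1, the ligand-binding GABA-B subunit, at 978, and Grik3, another kainate subunit, at 736. Gria1, an AMPA subunit, was at 382 per kilobase, and Glra2, the glycine receptor alpha subunit known from embryonic neurons, at 326. The levels per kilobase assume that all annotated exons are transcribed, which was not tested.

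**Figure D1:**
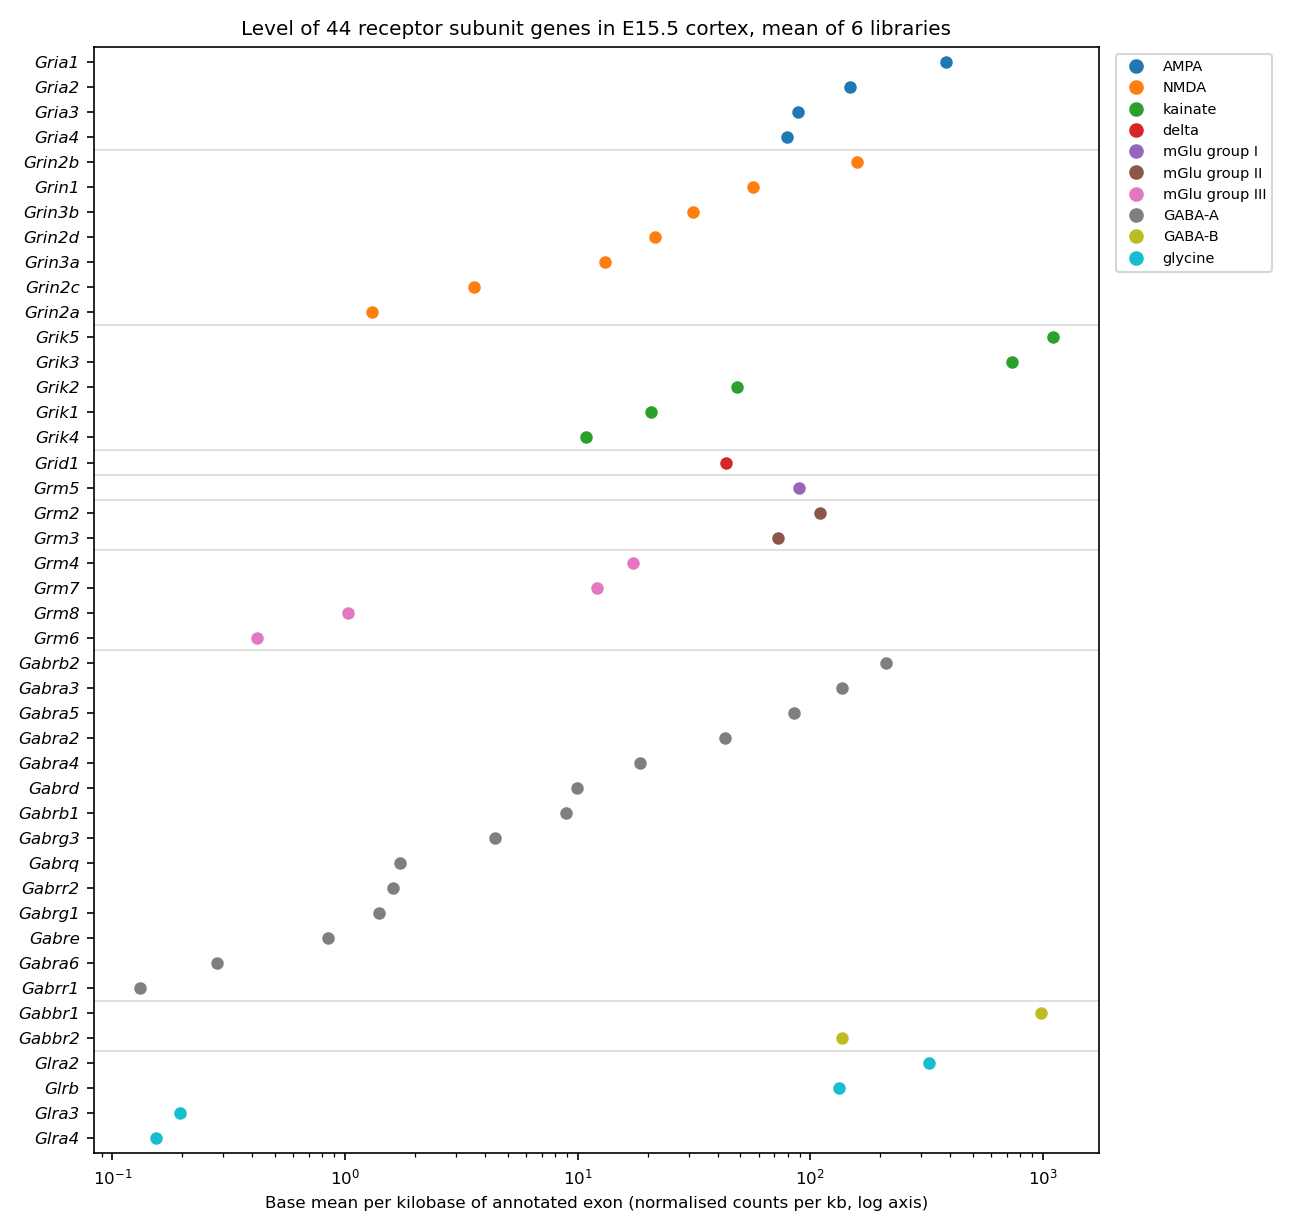
Base mean per kilobase of annotated exon (log axis) for 44 members, 1 point a gene, coloured and grouped by receptor family and ordered by level within a family. Grik5 at 1107, Gabbr1 at 978 and Grik3 at 736 normalised counts per kilobase lie farthest to the right, and Gabrr1 at 0.131 lies farthest to the left.

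No receptor subunit gene passed the authors' threshold. By the authors' deposited DESeq2 values, 0 of 49 members had an adjusted p under 0.05, where 0.136% of all genes tested did. On the recovered reads limma called 0 of 12048 genes, so its 0 called members are nothing particular to the receptors. It gave 596 of those genes an unadjusted p under 0.05, among them 3 of 41 members, the same 3 as DESeq2. In the deposited DESeq2 values an unadjusted p under 0.05 was found for 3 of 49 members (6.12%) against 3.96% of all genes. These were Gabra5, a GABA-A alpha subunit, Grm4, a metabotropic glutamate receptor, and Grik3, all higher on the negative side, where 1.19% of all genes had such a p. On the positive side 0 members did, against 2.77% of all genes.

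Fold changes were small and their errors wide. Among the 41 members with a base mean of at least 10, 16 had positive and 25 negative fold changes in the authors' deposited table, and 52% of all genes above that mean were negative. The median log2 fold change was -0.04 over these members and -0.01 over all such genes. The median size of the fold change, regardless of sign, was 0.13 on the log2 scale against 0.08, and the median standard error was 0.26 against 0.13. Glutamate receptor genes split 10 positive to 15 negative with a median of -0.03, GABA receptor genes 5 to 9 with a median of -0.07, and the glycine receptor genes 1 to 1.

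**Figure D2:**
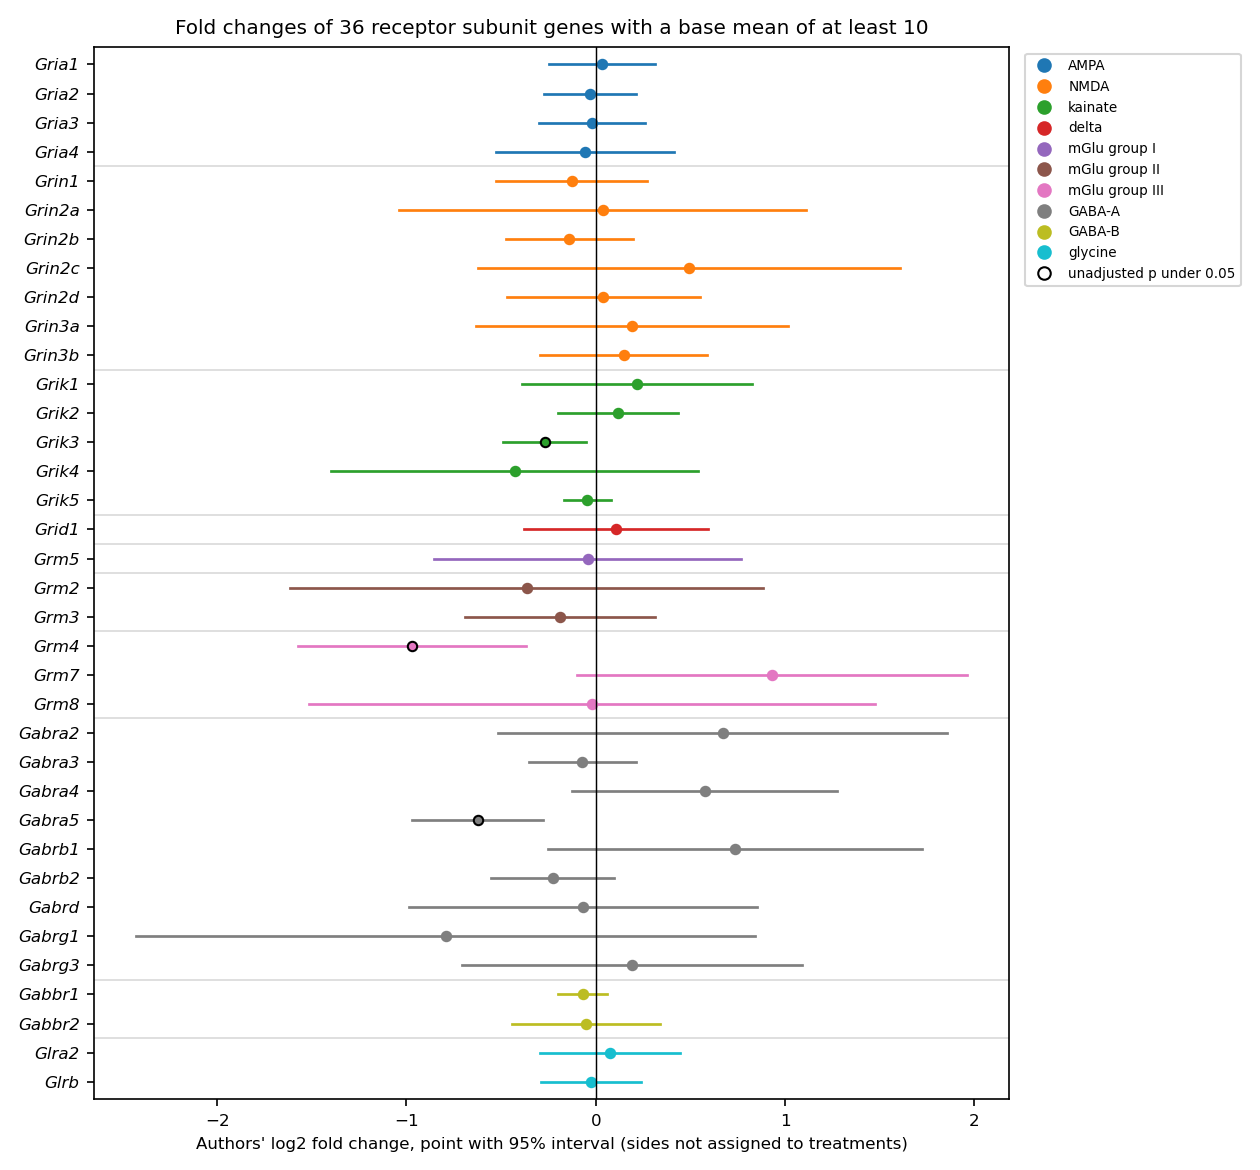
Log2 fold change of 36 members with a base mean of at least 10 in the authors' deposited table, with 95% intervals from the deposited standard errors, coloured by receptor family. Points ringed in black have an unadjusted p under 0.05, and these are Grik3 at -0.27, Gabra5 at -0.62 and Grm4 at -0.97.

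AMPA receptors, which carry most fast excitatory transmission in the mature cortex, had fold changes close to 0. The authors' deposited table gave log2 fold changes of 0.03 ± 0.14 (standard error) for Gria1, -0.03 ± 0.13 for Gria2, -0.02 ± 0.14 for Gria3 and -0.06 ± 0.24 for Gria4. The 95% intervals of the first 3 stayed between -0.30 and 0.31. Gria1 had 2052, 2949 and 2011 normalised reads on the positive and 2261, 2308 and 2284 on the negative side. Its sides overlapped, with library 2 of the positive side the highest of the 6. Gria2, whose edited transcript makes AMPA channels impermeable to calcium, had 1980, 2627 and 2253 against 2291, 2104 and 2616, and its sides overlapped too.

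The mix of AMPA transcripts was steady across libraries. By level per kilobase, Gria1 made up 54.6% ± 1.77 (SD, n = 6) of the AMPA subunit transcripts, Gria2 21.3% ± 1.66, Gria3 12.8% ± 1.46 and Gria4 11.3% ± 1.59. The Gria1 share was 55.1% ± 1.63 (SD, n = 3) on the positive and 54.1% ± 2.09 on the negative side, a gap smaller than either spread.

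NMDA receptors combine the obligatory subunit of Grin1 with GluN2 or GluN3 subunits, and Grin2b encodes the GluN2 subunit that predominates before birth. Per kilobase Grin2b stood 121-fold above Grin2a, the subunit that replaces much of it after birth. Its share of the 4 GluN2 transcripts was 85.6% ± 2.28 (SD, n = 6), followed by Grin2d at 11.7% ± 1.38, Grin2c at 2.03% ± 1.03 and Grin2a at 0.688% ± 0.146. Grin2b had 2981, 4763 and 3516 normalised reads on the positive and 4300, 3338 and 4769 on the negative side. The sides overlapped across nearly their whole range, and the authors' deposited table gave it a log2 value of -0.14 ± 0.17.

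The other NMDA genes had wide intervals that spanned 0. Of the 7 members 5 were positive and 2 negative, with a median log2 fold change of 0.04, and the smallest p was 0.386 by DESeq2 in the authors' deposited table. Grin2c had the largest positive fold change, 0.49 ± 0.57, from normalised reads of 29.8, 16.6 and 16.6 against 10.8, 13.4 and 21.2. Library 1 of the positive side was the highest for Grin2c, and the sides overlapped. Grin3a, a GluN3 subunit that lowers calcium entry, had 108, 315 and 89.6 against 155, 109 and 186, so that a single library, the second of the positive side, held its highest value. Grin1 had 482, 680 and 424 against 536, 486 and 713, with overlapping sides.

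Annotated exons of some NMDA genes lie over genes on the opposite strand, and whether strands were counted apart is not stated. Grin3b shares 1059 of its 3296 exon bases with Tmem259, Grin1 shares 1307 bases with its antisense gene Grin1os, and Grin2d shares 643 with Gm45441. Grin2c shares 91 bases with Gm25837. Grin2b shares 143 of its 24842 exon bases with Gm14329 and also overlaps Gm22892 and Gm26653. The levels of all these NMDA genes are therefore uncertain to some degree. At Grin3b, with 31.2 normalised counts per kilobase, reads of Grin3b and Tmem259 cannot be told apart where they overlap. In all, 19 of the 49 members overlap an exon of another gene, and for 13 of them the gene with the largest overlap lies on the opposite strand.

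Kainate receptors held the first and the third of the members by level per kilobase, Grik5 and Grik3. The first encodes GluK5, a high-affinity subunit that forms channels only together with GluK1 to GluK3, and the second encodes GluK3, a subunit with low agonist sensitivity. By level per kilobase Grik5 made up 57.7% ± 2.77 (SD, n = 6) and Grik3 38.1% ± 3.23 of the kainate transcripts, and Grik3 stood 15.2-fold above Grik2. Grik5 had the smallest standard error of all members, with 5506, 5689 and 5707 normalised reads on the positive and 5896, 5579 and 5956 on the negative side. The authors' deposited table put it at -0.04 ± 0.06 on the log2 scale, with a 95% interval of -0.17 to 0.08.

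Grik3 read higher on the negative side by 1.2-fold. It had 5462, 6101 and 6399 normalised reads on the positive and 8264, 7122 and 6250 on the negative side. Library 3 of the negative side lay below library 3 of the positive side, so the sides overlapped. The log2 fold change in the authors' deposited table was -0.27 ± 0.11 with DESeq2's p at 0.0164 unadjusted and 0.834 adjusted. An exact permutation test of the mean log2 reads of the sides gave a two-sided p of 0.20, where 0.10 is the smallest this design allows. Without library 1 of the negative side, the log2 ratio was -0.16, and limma on the recovered reads then gave Grik3 an unadjusted p of 0.146.

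The promoter of Grik3 is shown because this gene combines a high level with 1 of the 3 unadjusted p-values under 0.05. The window runs from 250 bases before to 50 after the RefSeq start, at chr4:125490446-125490745 on the plus strand (GRCm38.p6, the assembly of mm10), and capitals mark the GC box core GGGCGG or its reverse complement CCGCCC:
Grik3: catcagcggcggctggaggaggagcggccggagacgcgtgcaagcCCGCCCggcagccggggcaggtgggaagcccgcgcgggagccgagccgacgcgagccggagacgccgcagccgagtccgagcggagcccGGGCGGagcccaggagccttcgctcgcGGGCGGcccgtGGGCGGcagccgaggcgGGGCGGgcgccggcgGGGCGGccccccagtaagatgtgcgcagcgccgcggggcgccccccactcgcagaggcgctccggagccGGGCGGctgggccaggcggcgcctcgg
The window held 7 GC box cores and 50 CG dinucleotides, where the median window of all genes held 7 CG dinucleotides. GGGCGG in either strand was present in 22 of 41 windows of the 34 members that have one in the RefSeq table (53.7%), against 35.7% of all 32851 windows. The AT-rich core TAATTA, read by many homeodomain proteins and the same in both strands, was present in 1 of the 41 (2.44%) against 5.29%. These matches describe letters in a window and name no site.

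The remaining kainate genes were lower in level. Grik1 and Grik2, which encode pore-forming subunits, were at 0.22 ± 0.31 and 0.12 ± 0.16 on the log2 scale of the authors' deposited table. Grik4, a high-affinity subunit like GluK5, had the largest negative value of the family, -0.43 ± 0.49 in the authors' deposited table. It had 63.3, 48.9 and 53.1 normalised reads on the positive and 58.4, 28.8 and 137 on the negative side. Libraries 2 and 3 of the negative side were the lowest and the highest of all 6, so the value rested on library 3.

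The delta receptors bind cerebellins at the synapse and pass little or no current by themselves. Grid1, a delta receptor gene, had 252, 355 and 196 normalised reads against 218, 215 and 315. Its sides overlapped, with library 2 of the positive side the highest and library 3 of the same side the lowest. The authors' deposited table put its log2 fold change at 0.11 ± 0.25.

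Among the metabotropic glutamate receptors, group I couples to phospholipase C, and groups II and III lower cyclic AMP. Grm2 of group II, Grm5 of group I and Grm3 of group II made up 32.3% ± 6.71, 28.0% ± 4.57 and 23.4% ± 4.87 (SD, n = 6) of the transcripts per kilobase, and these 3 spreads overlapped. Grm5, a group I receptor known from neural progenitors and neurons, had 735, 1387 and 577 normalised reads against 867, 773 and 1143. The positive side held its highest and its lowest library. The authors' deposited table put Grm5 at -0.04 ± 0.41 on the log2 scale.

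Group II had negative fold changes that rested on a single library. Grm2 had 413, 631 and 366 normalised reads on the positive and 377, 300.5 and 1138 on the negative side. Library 3 of the negative side was the highest of all, and the other 2 of that side were within or below the positive side. The authors' deposited log2 fold change was -0.36 ± 0.64. Grm3 also had its highest value in library 3 and its lowest in library 2 of the negative side, with 227, 189.8 and 202 against 205, 167 and 335 and an authors' deposited log2 fold change of -0.19 ± 0.26. The exons of Grm2 overlap those of Gm28111 on the opposite strand by 470 bases, so its level is uncertain.

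Group III held the member with the largest negative and the member with the largest positive fold change among those with a base mean of at least 10. Grm4, a presynaptic receptor, had 79.5, 87.1 and 43.1 normalised reads on the positive and 135, 112 and 166 on the negative side. All 3 libraries of the negative side lay above all 3 of the positive side. Grm4 was 1.97-fold higher there. The authors' deposited table put it at -0.97 ± 0.31 on the log2 scale, with DESeq2's p at 0.00161 unadjusted and 0.246 adjusted. The exact permutation test gave a two-sided p of 0.10, the smallest this design allows. Leaving out 1 library at a time moved the log2 ratio between -1.17 and -0.72, the latter without library 3 of the positive side.

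Grm7, a low-affinity presynaptic receptor, had 60.6, 184 and 36.5 normalised reads on the positive and 37.7, 49 and 61.2 on the negative side. Library 2 of the positive side stood far above the others, and library 3 of the same side was the lowest of all. The log2 fold change in the authors' deposited table was 0.93 ± 0.53 with a DESeq2 unadjusted p of 0.077. Grm7 overlaps Gm20387 on the opposite strand by 130 exon bases. Grm8 was at -0.02 ± 0.76 with a base mean of 10.2 in the authors' deposited table, and Grm6, known from retinal bipolar cells, had 5, 1 and 4 raw reads against 3, 1 and 0.

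GABA-A receptors are usually built from alpha, beta and gamma subunits. Among the alpha subunits Gabra3 made up 46.5% ± 3.28 (SD, n = 6) of the transcripts per kilobase, Gabra5 29.0% ± 6.43, Gabra2 13.9% ± 6.23 and Gabra4 6.14% ± 1.91.

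Gabra3 and Gabrb2, a beta subunit gene, differed little between the sides. Gabra3 had 506, 609.7 and 455 normalised reads against 509, 542 and 601, at -0.07 ± 0.14 on the authors' deposited log2 scale. Gabrb2 stood at -0.23 ± 0.17 in the authors' deposited table, with 1041, 1556 and 1115 normalised reads against 1292, 1353 and 1705. The sides overlapped for both.

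Gabra5 had the smallest p of all 49 members. Its subunit forms receptors outside synapses that give tonic inhibition in hippocampus and cortex. It had 201, 199 and 200.2 normalised reads on the positive and 279, 275 and 372 on the negative side. The positive side was nearly constant, and all 3 libraries of the negative side lay above it. The mean was 199.8 ± 1.04 (SD, n = 3) on the positive and 309 ± 54.8 on the negative side, 1.54-fold higher. The authors' deposited table gave a log2 fold change of -0.62 ± 0.18 (95% interval -0.97 to -0.28), and DESeq2 p-values of 0.000392 unadjusted and 0.129 adjusted.

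For Gabra5 the exact permutation test gave a two-sided p of 0.10, the smallest this design allows. Leaving out 1 library at a time kept the log2 ratio between -0.70 and -0.47. Its share of the alpha transcripts was 24.1% ± 5.58 (SD, n = 3) on the positive and 33.9% ± 1.19 on the negative side. On the positive side the share was 25.1%, 18.1% and 29.2% in libraries 1 to 3, while the reads of Gabra5 itself were nearly constant. In library 2 of that side Gabra2 held 26.3% of the alpha transcripts, so the gap in shares depends on Gabra2 as well. Exons of Gabra5 overlap the predicted gene Gm9962 on the opposite strand by 148 bases, so part of its reads is uncertain.

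The ventral and striatal markers differed among the libraries of the negative side. Gabra5 had 279, 275 and 372 normalised reads in its libraries 1 to 3 and Grm4 135, 112 and 166, while the summed striatal markers were 5563, 2639 and 6036 and the ventral ones 14710, 8438 and 13540. For both receptor genes library 3, with the highest striatal sum of that side, was its highest, and library 2, with its lowest sums, was its lowest. On the positive side Gabra5 was nearly constant at 201, 199 and 200.2, and Grm4 had 79.5, 87.1 and 43.1. The striatal sums there were 2814, 1456 and 2499 and the ventral ones 7770, 7629 and 5280. Grm4 was thus highest there in library 2, which had the lowest striatal sum. Between the sides, 11 of 11 ventral and 13 of 13 striatal markers with a base mean of at least 10 were negative like Gabra5 and Grm4, with median log2 fold changes of -1.40 and -1.71. The part of these cells in the difference between the sides was not tested.

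**Figure D3:**
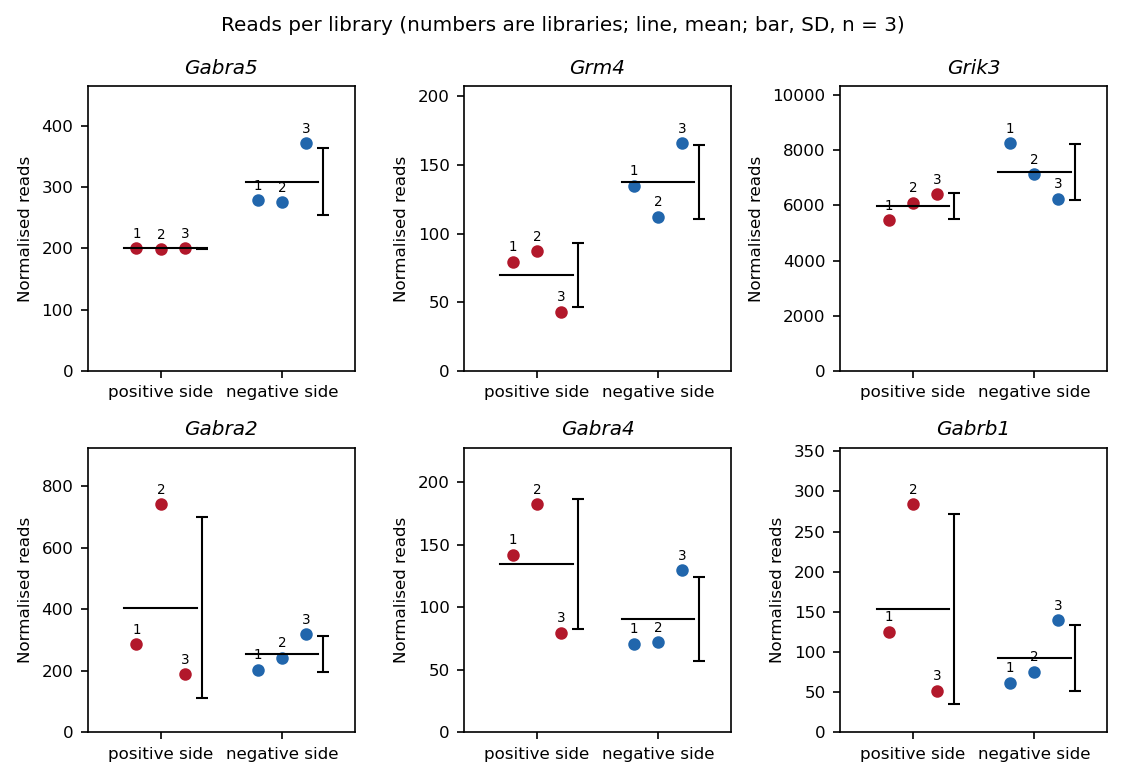
Normalised reads of 6 members in each library, with the positive side in red, the negative side in blue, library numbers beside the points, a line at the mean and a bar for 1 SD (n = 3). Gabra5 and Grm4 show no overlap between the sides, Grik3 overlaps at 6250 and 6399, and Gabra2, Gabra4 and Gabrb1 have their highest value in library 2 of the positive side.

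Most GABA-A genes lie in clusters that hold alpha, beta and gamma genes, and the signs of the fold changes differed within the clusters on chromosomes 5 and 7. On chromosome 7, Gabra5 lies near Gabrg3, whose log2 fold change in the authors' deposited table was 0.19 ± 0.46. On the X chromosome it was -0.07 for Gabra3, and the neighbouring Gabre and Gabrq had base means under 10.

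In the cluster on chromosome 5, 3 of the 4 genes had their highest value in library 2 of the positive side. Gabra2, an alpha subunit of synaptic receptors, had 287, 739.8 and 189 normalised reads on the positive and 203, 242 and 319 on the negative side. Gabra4, an alpha subunit of receptors outside synapses, had 142, 182 and 79.6 against 71.0, 72.0 and 129. Gabrb1, a beta subunit, had 126, 284 and 52.0 against 62.0, 75.8 and 140.05. For all 3 genes, the third library of the positive side was lower than the highest of the negative side, so the sides overlapped.

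The log2 fold changes of these 3 genes in the authors' deposited table were 0.67 ± 0.60 for Gabra2, 0.58 ± 0.36 for Gabra4 and 0.74 ± 0.50 for Gabrb1, and the smallest of their unadjusted p-values was 0.107 by DESeq2. Gabrg1, the gamma gene of the cluster, had -0.79 ± 0.83 in the authors' deposited table, from normalised reads of 8.13, 13.7 and 2.21 against 19.8, 5.76 and 16.5. Without library 3 of the positive side, limma on the recovered reads gave unadjusted p-values under 0.05 to 4 positive members, Gabra2, Gabra4, Gabrb1 and Grm7. It also gave them to 3 negative members, Gabra5, Grm4 and Grik3, and to 1144 of all 12048 genes. In that setting 104 genes and 0 members had an adjusted p under 0.05.

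Gabra4 and Gabrb1 lie on opposite strands with overlapping 5' ends. The RefSeq start of Gabrb1 (plus strand) used here, at position 71657921, is the first by position of those listed. It lies 387 bases inside Gabra4 (minus strand). The GENCODE start of Gabrb1 is at 71658113, so this distance depends on the start chosen. The GENCODE exons of Gabra4 and Gabrb1 overlap by 46 bases, so reads there cannot be told apart without strand. The promoter windows of the 3 genes and of Gabra5 are shown to set the members with like values across libraries beside the one with another pattern. Each holds 250 bases before and 50 after the RefSeq start (GRCm38.p6) in the direction of transcription, at chr5:71095800-71096099 (minus strand) for Gabra2, chr5:71658259-71658558 (minus strand) for Gabra4, chr5:71657671-71657970 (plus strand) for Gabrb1 and chr7:57510010-57510309 (minus strand) for Gabra5, with GC box cores in capitals:
Gabra2: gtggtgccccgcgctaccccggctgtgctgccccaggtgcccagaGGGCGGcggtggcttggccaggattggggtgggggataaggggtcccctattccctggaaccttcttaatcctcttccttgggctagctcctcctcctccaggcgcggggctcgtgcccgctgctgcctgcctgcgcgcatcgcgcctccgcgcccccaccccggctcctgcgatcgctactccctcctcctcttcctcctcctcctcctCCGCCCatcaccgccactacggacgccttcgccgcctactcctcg
Gabra4: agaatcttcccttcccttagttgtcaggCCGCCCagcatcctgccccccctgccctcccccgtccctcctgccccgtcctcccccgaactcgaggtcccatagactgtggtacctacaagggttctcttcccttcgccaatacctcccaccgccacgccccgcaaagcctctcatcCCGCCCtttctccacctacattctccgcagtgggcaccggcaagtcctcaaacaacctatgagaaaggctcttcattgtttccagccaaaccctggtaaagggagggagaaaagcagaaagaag
Gabrb1: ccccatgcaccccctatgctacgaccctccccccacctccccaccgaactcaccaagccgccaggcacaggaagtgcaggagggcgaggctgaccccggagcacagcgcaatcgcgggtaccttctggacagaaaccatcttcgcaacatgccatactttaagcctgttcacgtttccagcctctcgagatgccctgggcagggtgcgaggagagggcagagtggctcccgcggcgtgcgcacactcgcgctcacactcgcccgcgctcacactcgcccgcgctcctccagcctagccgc
Gabra5: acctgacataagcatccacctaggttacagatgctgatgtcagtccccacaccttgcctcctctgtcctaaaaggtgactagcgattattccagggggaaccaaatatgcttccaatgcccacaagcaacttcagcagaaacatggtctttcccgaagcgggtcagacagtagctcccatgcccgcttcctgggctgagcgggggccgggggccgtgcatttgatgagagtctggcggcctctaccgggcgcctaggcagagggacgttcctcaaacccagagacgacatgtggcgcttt
Gabra2 and Gabra4 each had 2 GC box cores in the window, while Gabrb1 and Gabra5 had 0. CG dinucleotides numbered 25 in Gabra2, 12 in Gabra4, 25 in Gabrb1 and 13 in Gabra5, against medians of 12 over the members' windows and 7 over all windows.

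Of the other GABA-A genes, Gabrd, the delta subunit of tonic receptors, had 37.1, 16.6 and 29.9 normalised reads against 25.2, 36.5 and 25.9. Library 2 of the positive side, the highest of the 6 libraries for 20 members, was the lowest for Gabrd. Gabrg3 had 44.3, 92.0 and 32.1 against 52.1, 32.6 and 63.6. The sides overlapped in both genes.

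GABA-B receptors work as a pair in which Gabbr1 encodes the subunit that binds GABA and Gabbr2 the subunit that couples to G proteins. Gabbr1 had the highest base mean of all members, 7592, and stood 7.11-fold above Gabbr2 per kilobase. It had 7203, 7743 and 7278 normalised reads on the positive and 7868, 7436 and 8025 on the negative side. These overlapped, and the log2 fold change in the authors' deposited table was -0.07 ± 0.07 with a 95% interval of -0.20 to 0.06. Gabbr2 had 839.6, 1149 and 721 against 772, 845 and 1193, at -0.05 ± 0.20 in the authors' deposited table and with overlapping sides.

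Glycine receptors at this age are known to contain mostly the alpha subunit of Glra2, and Glra2 made up 99.9% ± 0.102 (SD, n = 6) of the alpha transcripts per kilobase. Glrb, whose beta subunit binds the scaffold gephyrin, stood below it, with Glra2 2.44-fold higher per kilobase. Glra2 had 1032, 1353 and 769 normalised reads against 869.8, 982 and 1149, and Glrb had 628, 687 and 529 against 601, 594 and 684. The sides overlapped for both, and the authors' deposited table put them at 0.07 ± 0.19 and -0.02 ± 0.13 on the log2 scale. Glra3 had 0, 5 and 1 raw reads against 3, 1 and 1, Glra4 had 0, 0 and 0 against 1, 1 and 0, and the alpha gene Glra1, which dominates in adult spinal cord, was listed at a mean of 0.

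The 8 members with a base mean under 10 had few reads and wide errors. They were Gabra6, known from cerebellar granule cells, Gabre, Gabrq, Gabrr1, Gabrr2, Glra3, Glra4 and Grm6. Gabrq had 6, 13 and 2 raw reads on the positive and 17, 12 and 7 on the negative side, the most of the 8, and Gabrr1 had 1, 0 and 0 against 1, 0 and 0. The standard errors of their log2 fold changes ran from 0.83 for Gabrq to 4.08 for Gabrr1 in the authors' deposited table.

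Across the members, 2 libraries held most of the highest values. Of the 41 members with a base mean of at least 10, library 2 of the positive side was the highest of the 6 in 20 (48.8%) and library 3 of the negative side in 15 (36.6%), together 35. Over 12025 genes with base means between 10 and 3000 whose reads were recovered, the same libraries were highest in 22.7% and 19.0%. Library 3 of the positive side was the lowest in 21 members (51.2%) against 17.3% of those genes. Library 3 of the positive side and library 2 of the negative side were the highest in 0 members, against 16.3% and 13.4% of those genes.

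The same order appeared in the size of the deviations. Relative to each gene's own mean, the median log2 level of the members was -0.18, 0.30 and -0.35 in libraries 1 to 3 of the positive side and -0.05, -0.24 and 0.23 in those of the negative side. Over all genes recovered in that range these medians lay between -0.01 and 0.00. Family sums differed in their order. The AMPA sum was 5176, 7271 and 5506 against 6064, 5733 and 6243, the NMDA sum 3861, 6101 and 4290 against 5268, 4165 and 5991, and the GABA-A sum 6417, 8430 and 5968 against 7098, 6765 and 8668. In these 3 families the second library of the positive side or the third of the negative side was the highest, and library 1 or 3 of the positive side the lowest. The kainate sum, the largest of all families, had another order, 11740, 12900 and 12850 against 14990, 13410 and 13130, with library 1 of the negative side the highest.

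**Figure D4:**
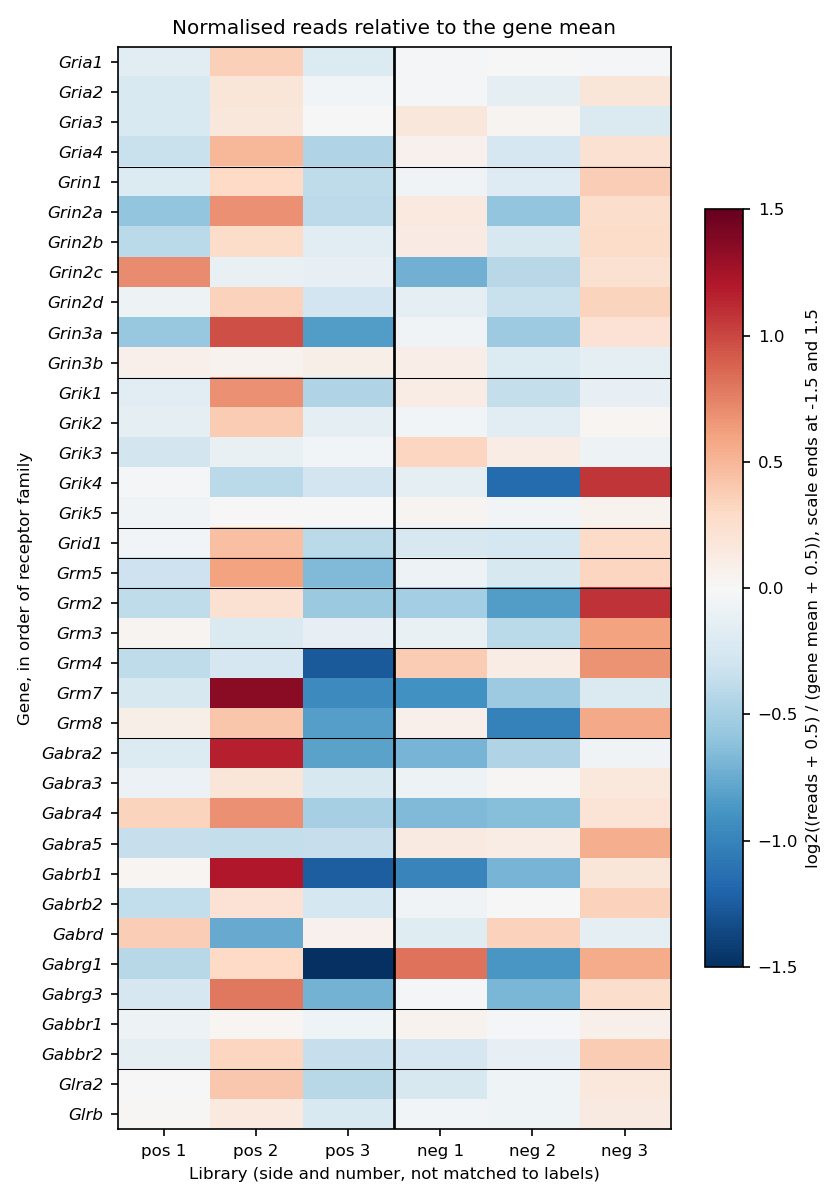
Normalised reads of 36 members with a base mean of at least 10 in each library relative to the gene's mean, as log2((reads + 0.5) / (gene mean + 0.5)), with genes in rows by receptor family and libraries in columns. Red cells gather in library 2 of the positive side and library 3 of the negative side, and blue cells in library 3 of the positive side and library 2 of the negative side.

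Only 2 of the 41 members (4.88%) had sides that did not overlap, Gabra5 and Grm4, against 9.61% of the recovered genes. Without library 2 of the positive side the number was 13 of the 41, all higher on the negative side. In that setting 10.2% of the recovered genes were apart in that direction. That library was the highest of the 6 in 20 members, so leaving it out by itself lowers the positive side of these members. Many members shared this library pattern, so the 13 are not independent of each other. Without that library the median log2 ratio of the members, computed from recovered reads, moved from -0.04 to -0.23, and without library 3 of the negative side to 0.12. The direction of the members as a group therefore depended on which single library was left out.

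Markers of other cells also differed between these libraries. Library 2 of the positive side had the highest sum of Cajal-Retzius markers, 2545 normalised reads over 6 genes against 1290 to 1834 in the other 5 libraries. Library 3 of the negative side, the other library with many of the highest receptor values, had the lowest Cajal-Retzius sum. Among neuronal markers, Nefm, a neurofilament gene, was highest in library 2 of the positive side at 2678 against 593 to 1226 elsewhere, while Rbfox3, a splicing factor of neurons, was lowest there at 1839 normalised reads. The sum of the 5 neuronal markers with recovered reads was 14970 in that library, Nefm included, 12140 in library 3 of the negative side and 11590 to 12600 in all but library 2 of the positive side. Library 3 of the negative side had the lowest sum of 5 pallial markers, 14460, and the highest striatal sum, 6036. Microglial markers summed to 3623, 4087 and 1493 on the positive and 1328, 2345 and 2068 on the negative side. The part of these cells in the library pattern of the receptor genes was not tested.

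Genes that make, pack and clear the transmitters were compared beside the receptors. Of 19 measured genes of synthesis and transport 0 were called by DESeq2 in the authors' deposited table, where 0.136% of all genes were, and their median log2 fold change was -0.05. At an unadjusted p under 0.05 there were 3 on the negative and 1 on the positive side, where 1.19% and 2.77% of all genes had such a p. Slc32a1, the vesicular transporter of GABA and glycine, was at -0.80 ± 0.25 on the log2 scale in the authors' deposited table, with a DESeq2 adjusted p of 0.212. Abat, the enzyme that degrades GABA, had -0.50 ± 0.16 (adjusted p = 0.228), and Gad2, a GABA-synthesising enzyme, had -1.16 ± 0.43 (adjusted p = 0.541) by DESeq2 in the same deposited table.

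The GABA genes were highest in the libraries with high ventral marker sums. Slc32a1 had 519.7, 756 and 428 normalised reads on the positive side against 1245, 646 and 1067 on the negative side, and Gad2 had 545, 525 and 316 against 1392, 579 and 1134. In both genes libraries 1 and 3 of the negative side were the highest. For Slc32a1 library 2 of that side lay below the highest of the positive side, while the sides of Gad2 did not overlap. Gad1, the other GABA-synthesising enzyme, had 229.6, 379.7 and 179 against 332, 261 and 409.5, and its log2 fold change in the authors' deposited table was -0.34 ± 0.27. The part of ventral cells in these values was not tested.

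For glutamate, Slc17a6, a vesicular glutamate transporter, was the 1 gene of that list with an unadjusted p under 0.05 on the positive side, at 0.29 ± 0.13 in the authors' deposited table. Slc17a7, the other vesicular transporter of cortical neurons, had 0.30 ± 0.16 there. The chloride transporters Slc12a2, which loads chloride into immature neurons, and Slc12a5, which exports it in mature ones, were at -0.13 ± 0.13 and -0.06 ± 0.26 on the log2 scale of the authors' deposited table. Both intervals spanned 0.

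Scaffolds and auxiliary subunits showed small differences. Of 33 glutamate receptor partners 9 were positive and 24 negative, with a median log2 fold change of -0.07 and 0 called in the authors' deposited table. Cbln2, a cerebellin that links delta receptors to neurexins, was the 1 gene with an unadjusted p under 0.05, at -0.79 ± 0.26 (adjusted p = 0.266 by DESeq2) in the authors' deposited table. It had 116, 134 and 180.3 normalised reads against 207, 207 and 329.5, and its sides did not overlap. Of 17 partners of GABA and glycine receptors 0 were called, the median was -0.04, and Trak2, a kinesin adaptor, had an unadjusted p under 0.05 at 0.21 ± 0.10 in the authors' deposited table. Gphn, the gene of gephyrin, had -0.05 ± 0.11 there. Of all genes 3.96% had an unadjusted p under 0.05.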

How the data were processed

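The 6 libraries were grouped by title into 3 edited for Ccnd2 Thr280Ala and 3 with GFP alone. Per the submitters' processing notes the authors used DESeq2, featureCounts and cutadapt on mm10, whose versions, like the aligner and the strand setting, are not stated. The table is the authors' own comparison, with 0 columns of values per sample. Per the file headers it holds the base mean, a signal deposited as the mean of counts divided by size factors, the log2 fold change with its standard error on the log2 scale, the Wald statistic, a score, and the p-value with its adjusted p-value.

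Size factors came from 739 genes with 1 read in all, whose base means take 6 values and whose signs give the sides. For each gene, 6 whole numbers were sought that return the deposited base mean, and whose negative binomial fit returns the deposited log2 fold change within 1e-12. Of 12113 genes tried 99.5% were resolved, and of the 49 members 48 by fold change and 1, Glra4, by the mean alone. On simulated data 199 of 200 genes were recovered with 0 wrong, and 0 of 200 shifted means gave a solution. Intervals are 95% from the deposited standard error. They cover the spread between these libraries only.

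A gene was called at the authors' deposited DESeq2 adjusted p under 0.05. Tests on recovered reads used limma 3.58.1 in R 4.3.3 with trend on log2(normalised reads + 1) and Benjamini-Hochberg adjustment, and exact permutation. Other steps used Python 3.11.15, numpy 2.4.6, pandas 2.3.3, scipy 1.17.1, numba 0.67.0 and matplotlib 3.10.9. Exon lengths and overlaps are from GENCODE M21, and promoter windows from RefSeq (GRCm38.p6), where 34 of 49 members matched by symbol.

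Named genes were members with an unadjusted p under 0.05, those with the highest mean and largest fold changes in each family, and the 3 smallest p of each list. Other members were named after their values were seen. Members and lists were chosen with earlier results of these data known. The values of some members are not reported here, though counts over all members include them.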

Additional observations from a re-analysis of the deposited data

How the results depend on the processing

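No receptor gene was called at a deposited adjusted p under 0.1, while an unadjusted p under 0.05 gave 3. None was called at 0.05 after adjustment over genes with a base mean of at least 10 (smallest member value 0.0993) or 50 (0.147). Those adjustments called 31 of 13932 and 16 of 12019 genes. Limma on recovered reads called no member with all libraries or any 1 left out. Of all 12048 genes it called 104 without library 3 of the positive side and 1 without library 2 of the negative side. It called 0 genes in every other setting, so there its 0 members carry no information on the receptors. The pathway lists went from 0 calls to 6 with an unadjusted p under 0.05 and stayed at 0 under 0.1. Members whose sides did not overlap numbered 2 to 13 of 41 with 1 library left out, and 13 was reached without library 2 of the positive side. With fewer libraries the share of all recovered genes apart rose too. Genes higher on the negative side went from 4.27% to between 7.3% and 10.4%. Those higher on the positive side went from 5.34% to between 7.72% and 14.7%. The limma fits and the counts with a library left out were chosen after seeing the data.

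The median over the members was -0.08 as a weighted mean and -0.03 relative to all genes, and ran from -0.23 to 0.12 with 1 library left out. Family medians moved by less than the median standard error of a single member of the family in 20 of 20 alternatives. For AMPA, kainate, metabotropic groups I and II and GABA-B the alternatives held the same genes, so these medians could not move. The yardstick is wide for the small families. It counts as unmoved the median of metabotropic group III, which went from -0.02 to 0.46 with Grm6 included. Raw reads gave log2 ratios of -0.59 for Gabra5, -0.92 for Grm4 and -0.28 for Grik3.

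No paired analysis was possible because the table has no values per sample and the recovered libraries carry no replicate numbers. Depth is lowest for the 8 members with a base mean under 10, whose deposited standard errors on the log2 scale are 0.83 to 4.08.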

Other observations

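Some partners of the receptors stood out in library 2 of the positive side, as Gabra2, Gabrb1 and Grm7 did. Cbln4, a cerebellin made by subsets of neurons, had 31.6, 147 and 4.42 normalised reads on the positive and 13.48, 23 and 28.2 on the negative side, the widest range among the glutamate receptor partners. Slc1a2, a glutamate uptake transporter, had 625, 1092 and 368 against 438, 459 and 479. Slitrk3, an adhesion protein of GABA synapses, had 280.2, 608 and 238 against 335, 313 and 347. In all 3 genes that library was the highest of the 6 and library 3 of the same side the lowest. Their log2 fold changes in the authors' deposited table were 1.5 ± 0.84, 0.60 ± 0.44 and 0.18 ± 0.30.

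Of 8 genes of glial precursors and astrocytes 3 were positive and 5 negative, with a median log2 fold change of -0.15. The positive ones in the authors' deposited table were Gfap at 1.02 ± 0.97, Pdgfra at 0.54 ± 0.60 and Sox10 at 0.01 ± 0.32. The 2 with the smallest p, both negative, were Aldh1l1 and Olig2. Aldh1l1, an enzyme gene of radial glia and astrocytes, had 731, 680.1 and 463 normalised reads on the positive and 1049, 843 and 1086 on the negative side. Its sides did not overlap, and its adjusted p by DESeq2 was 0.0749 in the authors' deposited table. Olig2, a transcription factor gene of oligodendrocyte precursors and ventral progenitors, had 172, 163 and 145 against 307, 144 and 360.1, and library 2 of the negative side was the lowest of all.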
